A study of Mus musculus with 24 samples.

Results

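The antioxidant target genes of the transcription factor NRF2 were examined in the livers of mice fed different dietary fats. The genes were Nqo1, Gclc, Gclm, Txnrd1, Srxn1, Hmox1, G6pdx, Pgd, Slc7a11 and Osgin1, taken by gene symbol from the table that pairs the probe sets of the array with genes. Of these 10 genes, 9 had a probe set assigned to them alone, and G6pdx was not analysed here. They stand beside 18820 genes measured in the same way. Each of the 9 was represented by 1 probe set, so no choice between probe sets had to be made. Male mice on a C57BL/6J background, 4 to 6 months old, were randomly assigned to 3 diets of 45 energy percent fat for 7 weeks, with 8 mice per diet. The diets differed in their fat, which was partially hydrogenated soy oil (Trans), a canola and palm olein blend (Cis) or cocoa butter (Saturated). Whole liver RNA of each mouse was hybridized to its own array, and no group on standard chow is among the samples, so all differences are between high-fat diets that differ in the kind of fat.

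NRF2, encoded by Nfe2l2, is a transcription factor that KEAP1 holds in the cytoplasm and marks for degradation through the CUL3 ubiquitin ligase. Oxidants and electrophiles modify KEAP1, after which NRF2 enters the nucleus, pairs with a small MAF protein and binds antioxidant response elements near its targets. In the liver these targets supply glutathione and NADPH, recycle oxidized proteins, break down heme and remove reactive compounds.

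The antioxidant response element core, written TGACNNNGC and searched on both strands, was looked for in RefSeq promoter windows of mouse build GRCm38.p6, which span 250 bases before to 50 bases after an annotated start. The TGAC at its beginning is also part of AP-1 and cyclic AMP response elements. Windows were given for 8 of the 10 genes (not for Gclc and Hmox1), and a match was found for 5 of the 8, Gclm, Txnrd1, Srxn1, G6pdx and Pgd. Over all genes with a window, 13.99% held a match. The match of Txnrd1 lay in 1 of its 3 windows and that of Pgd in 1 of its 2 windows. Counted from the annotated start, the match began at -134 in Gclm, -92 in Txnrd1, -57 in G6pdx, 29 in Srxn1 and 4 in Pgd. Those of Srxn1 and Pgd thus lie after the start, in transcribed bases and not upstream of the gene. The Pgd window with the match lies downstream of its other window, which held no match. For the 4 matches whose genes were measured, the matched bases are shown in capitals with up to 20 bases on each side. Of these genes, Txnrd1, Srxn1 and Pgd also moved together from liver to liver, as did Nqo1, which held no match. Gclm held a match and did not move with them. A link between matches and such co-movement was not tested. The stretches lie at chr3:122245403-122245451 (Gclm, + strand), chr10:82859094-82859142 (Txnrd1, + strand), chr2:152105532-152105573 (Srxn1, + strand) and chr4:149166051-149166099 (Pgd, - strand).
Gclm: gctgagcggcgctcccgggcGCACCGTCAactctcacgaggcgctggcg
Txnrd1: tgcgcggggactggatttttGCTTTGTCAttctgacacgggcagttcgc
Srxn1: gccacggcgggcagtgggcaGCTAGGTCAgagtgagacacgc
Pgd: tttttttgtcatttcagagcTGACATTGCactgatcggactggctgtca
In Gclm, Txnrd1 and Srxn1 the core reads on the opposite strand, so the capitals end in GTCA, and in Pgd it reads on the same strand as the gene. The windows of Nqo1, Slc7a11 and Osgin1 held no match to these letters, which describes the windows and not the binding of NRF2.

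The arrays were similar in their overall signal, with medians between 2.94 and 3.06 on the log2 scale. Each array's correlation with the others had a median between 0.975 (Trans replicate 4) and 0.986. All 12 hepatocyte marker genes had a mean signal over 20 on the linear scale, whereas 1 of 6 measured genes of the exocrine pancreas did. A gene was called when its adjusted p in limma, over all 35556 probe sets, was under 0.05. By this rule 3 of the 18820 genes were called for Trans against Saturated (0.0159%), 0 for Trans against Cis (0%) and 0 for Cis against Saturated (0%). The count for Trans against Saturated ranged from 1 to 13 with single livers left out (13 without Saturated replicate 2, 6 without Saturated replicate 1) and was 0 with only the 2 groups compared. At an unadjusted p under 0.05, Trans livers had higher values than Saturated livers for 4.55% of genes and lower values for 3.78%. The shares were 3.5% higher and 2.99% lower for Trans against Cis, and 3.47% higher and 3.42% lower for Cis against Saturated. Among the 8298 genes with a mean signal over 20, the shares in either direction were 11.2% for Trans against Saturated, 7.2% for Trans against Cis and 8.0% for Cis against Saturated.

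None of the 9 NRF2 targets was called in any of the 3 comparisons, nor in the F test over the 3 diets, in which 0.00531% of all genes were called and 7.96% had an unadjusted p under 0.05. For every target the values of the 3 diets overlapped. In mean expression 6 of 9 targets were higher in Trans than in Saturated livers, the median log2 difference being 0.03. For Trans against Cis 7 of 9 were higher and the median was 0.13. In Cis against Saturated livers 5 of 9 were higher, with a median below 0.01. Over all genes the shares with a higher mean were 51.6%, 50.5% and 51.4% in the same comparisons. Over the 8298 genes with a mean signal over 20, as 8 of the 9 targets had, they were 49.0%, 55.2% and 43.5%. At an unadjusted p under 0.05, 1 target was higher in Trans than in Saturated livers (Srxn1) and 1 was lower in Cis than in Saturated livers (Osgin1).

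**Figure D1:**
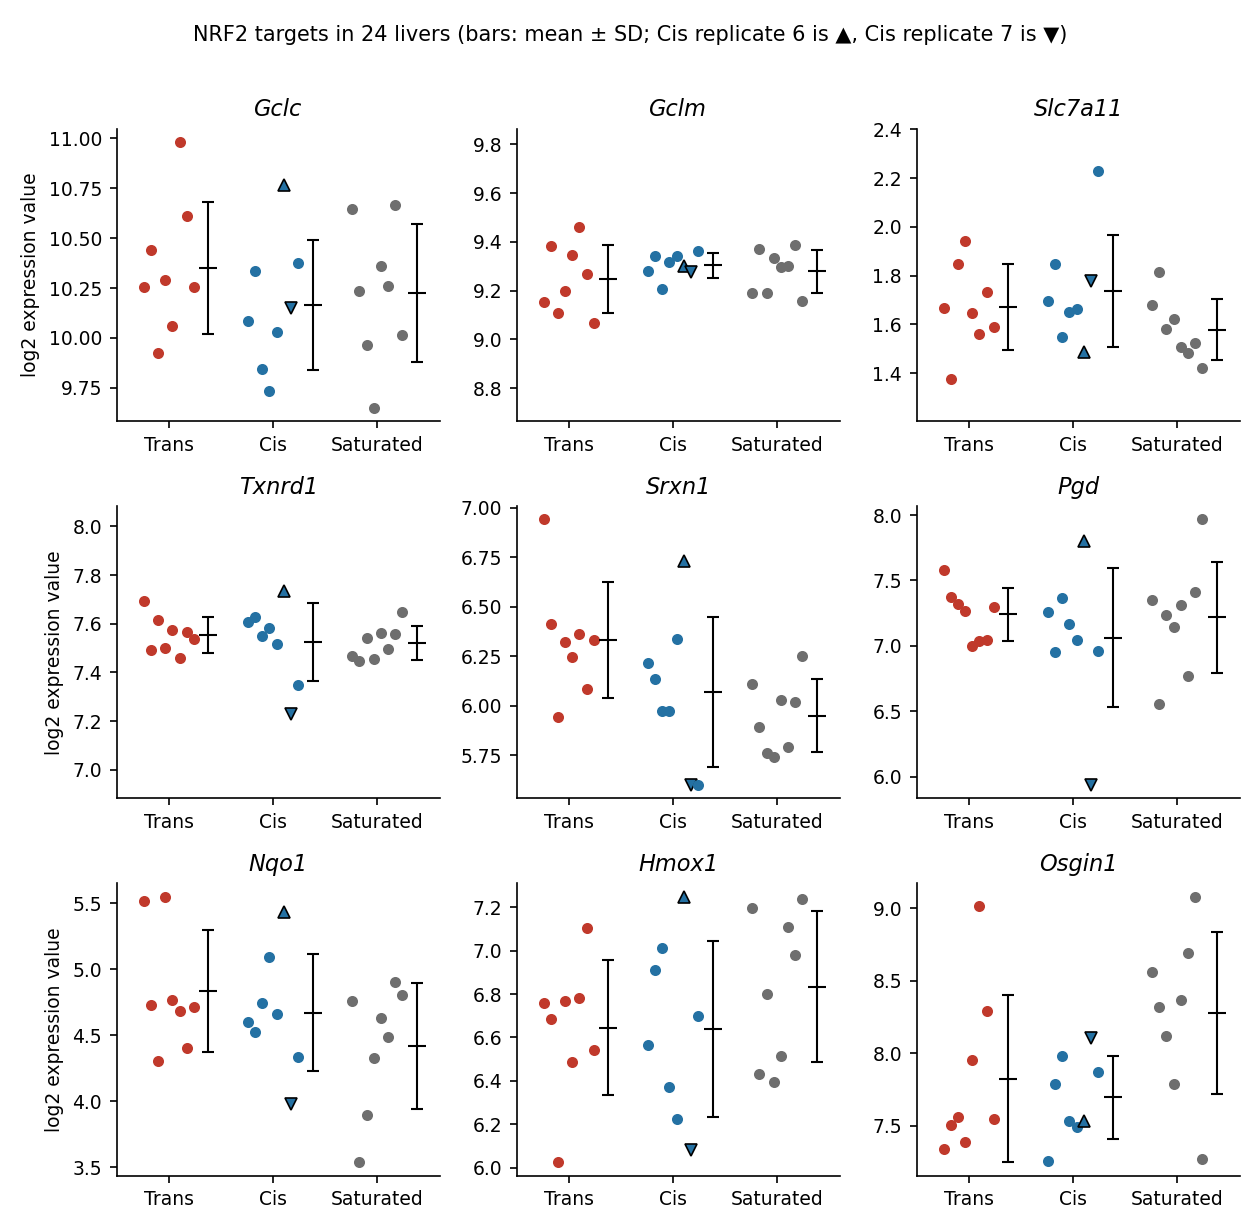
Log2 expression values (y axis) of 9 NRF2 targets in single livers (points) by diet (x axis), with the mean ± SD of 8 livers beside the points. The diets overlap for every gene, the Srxn1 values of 5 Trans livers lie above all Saturated livers, and Cis replicates 6 and 7, drawn as triangles, lie at opposite ends for several genes.

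Glutathione synthesis is represented by Gclc and Gclm, the catalytic and modifier subunits of the rate-limiting glutamate-cysteine ligase, and by Slc7a11, the cystine transporter subunit of system xc-. The log2 value of Gclc (probe set 10587266) had a lowest, median and highest value of 9.93, 10.27 and 10.98 in Trans livers, 9.73, 10.12 and 10.77 in Cis livers, and 9.65, 10.25 and 10.66 in Saturated livers. The ranges overlapped over most of their width. The log2 difference was 0.13 (SE 0.16, adjusted p = 0.921 in limma) for Trans against Saturated, 0.19 for Trans against Cis and -0.06 for Cis against Saturated. Without Trans replicate 6, its highest liver, the first of these was 0.04 and the second 0.10.

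Gclm (probe set 10495763) had values of 9.07, 9.23 and 9.46 in Trans livers, 9.21, 9.31 and 9.36 in Cis livers, and 9.16, 9.30 and 9.39 in Saturated livers. The spread of Gclm within diets was among the smallest of expressed genes, at the 6.58th percentile of the residual SD over the 8298 genes with a mean signal over 20, and Gclc stood at the 92.3rd percentile. The subunits of 1 enzyme thus stood near opposite ends in how much they varied between mice. The 95% interval of the Gclm difference ran from -0.15 to 0.09 for Trans against Saturated and from -0.17 to 0.06 for Trans against Cis.

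Slc7a11 (probe set 10498024) lay near the bottom of the array's scale. Its lowest, median and highest log2 values were 1.37, 1.66 and 1.94 in Trans livers, 1.49, 1.68 and 2.23 in Cis livers, and 1.42, 1.55 and 1.82 in Saturated livers. It was the only target with a mean signal under 20 (3.19 on the linear scale). The log2 difference was 0.09 for Trans against Saturated (SE 0.09), -0.07 for Trans against Cis and 0.16 for Cis against Saturated (adjusted p = 0.824 in limma).

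Repair of oxidized proteins is represented by Txnrd1, the cytosolic thioredoxin reductase, and Srxn1, sulfiredoxin, which restores overoxidized peroxiredoxins. Srxn1 (probe set 10477061) had values of 5.94, 6.33 and 6.94 in Trans livers, 5.60, 6.06 and 6.73 in Cis livers, and 5.74, 5.96 and 6.25 in Saturated livers. Of the 8 Trans livers, 7 lay above the Saturated mean and 5 above the highest Saturated liver. The mean was 6.33 ± 0.29 in Trans, 6.07 ± 0.38 in Cis and 5.95 ± 0.18 in Saturated livers (SD, n = 8 each).

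Srxn1 was thus 1.30-fold higher in Trans than in Saturated livers, a log2 difference of 0.38 (SE 0.14, 95% interval 0.09 to 0.67), with an unadjusted p of 0.0136 and an adjusted p of 0.556 in limma. With single livers left out the difference ranged from 0.29 (without Trans replicate 1) to 0.44, with unadjusted p-values from 0.00601 to 0.0383 in limma. Trans livers exceeded Cis livers by 0.26 (SE 0.14, adjusted p = 0.813 in limma), and Cis livers exceeded Saturated livers by 0.12. The markers of recruited and lipid-associated macrophages, described further on, were higher in mean in Trans than in Saturated livers for 8 of 9 genes. At an unadjusted p under 0.05 in limma 1 of them was higher, and 3 of the 9 had a mean signal over 20. Their part in the Srxn1 difference was not tested.

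Txnrd1 (probe set 10365260) varied little, with a residual SD at the 11.2th percentile of expressed genes. Its log2 values were 7.46, 7.55 and 7.69 in Trans livers, 7.23, 7.57 and 7.74 in Cis livers, and 7.45, 7.52 and 7.65 in Saturated livers, and the lowest and highest values of all were both in Cis livers (replicates 7 and 6). The log2 difference for Trans against Saturated was 0.03, with a 95% interval from -0.09 to 0.16, and that for Trans against Cis was 0.03, from -0.10 to 0.16.

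NADPH, which thioredoxin reductase and glutathione reductase use, is made by G6pdx and Pgd, enzymes of the oxidative pentose phosphate pathway. Pgd, 6-phosphogluconate dehydrogenase (probe set 10518570), had log2 values of 7.00, 7.28 and 7.58 in Trans livers, 5.94, 7.11 and 7.80 in Cis livers, and 6.56, 7.27 and 7.97 in Saturated livers. The Trans livers lay within the ranges of both other diets. The SD was 0.20 in Trans, 0.53 in Cis and 0.43 in Saturated livers, and the differences in mean were 0.02 for Trans against Saturated, 0.18 for Trans against Cis and -0.16 for Cis against Saturated (SE 0.20 for each). Without Cis replicate 7, the lowest liver, Trans against Cis was 0.02 and Cis against Saturated 0.01.

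Nqo1, a quinone reductase widely used as a marker of NRF2 activity, varied strongly between mice. Its mean signal was 26.3 on the linear scale, not far above the limit of 20. Its lowest livers lay under 20, Saturated replicates 2 (11.6) and 3 (14.9), Cis replicate 7 (15.8) and Trans replicate 3 (19.8). Its log2 values (probe set 10581538) were 4.31, 4.72 and 5.55 in Trans livers, 3.98, 4.63 and 5.43 in Cis livers, and 3.54, 4.56 and 4.90 in Saturated livers. Of the 8 Trans livers, 2 lay above all Saturated livers, whereas the medians of the diets were close. The log2 difference was 0.42 for Trans against Saturated (SE 0.22, 95% interval -0.04 to 0.87, adjusted p = 0.711 in limma), 0.16 for Trans against Cis and 0.25 for Cis against Saturated. With Saturated replicate 2, the lowest liver, left out, it was 0.29 for Trans against Saturated and 0.13 for Cis against Saturated, and with Trans replicate 4 left out it was 0.06 for Trans against Cis.

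Hmox1, heme oxygenase 1, breaks down heme to biliverdin, iron and carbon monoxide. Its log2 values (probe set 10572897) were 6.02, 6.72 and 7.10 in Trans livers, 6.08, 6.63 and 7.25 in Cis livers, and 6.40, 6.89 and 7.24 in Saturated livers. In Trans livers 7 of 8 lay below the Saturated mean, although 7 also lay within the Saturated range. The log2 difference was -0.19 (SE 0.17) both for Trans against Saturated and for Cis against Saturated, and 0.01 for Trans against Cis (adjusted p of 0.877, 0.885 and 0.999 in limma).

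Osgin1, oxidative stress induced growth inhibitor 1, differed in mean in the other direction from Srxn1 and Nqo1 in the comparisons with Saturated livers. Its log2 values (probe set 10575873) were 7.34, 7.55 and 9.02 in Trans livers, 7.26, 7.66 and 8.10 in Cis livers, and 7.27, 8.35 and 9.08 in Saturated livers. All 8 Cis livers lay below the Saturated mean, as did 6 of 8 Trans livers, whereas Saturated replicate 8 (7.27) lay at the level of the lowest Cis liver. The mean of Osgin1 in Cis livers was 0.669 times that in Saturated livers, a log2 difference of -0.58 (SE 0.23, 95% interval -1.06 to -0.10, unadjusted p = 0.0205, adjusted p = 0.687 in limma). It was -0.45 for Trans against Saturated (SE 0.23, unadjusted p = 0.0661, adjusted p = 0.709 in limma) and 0.13 for Trans against Cis. With single livers left out, Cis against Saturated ran from -0.72 (without Saturated replicate 8, unadjusted p = 0.00299 in limma) to -0.47 (without Saturated replicate 7, unadjusted p = 0.0537 in limma). Trans against Saturated ran from -0.62 (without Trans replicate 6, unadjusted p = 0.00601 in limma) to -0.34 (without Saturated replicate 7, unadjusted p = 0.156 in limma).

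**Figure D2:**
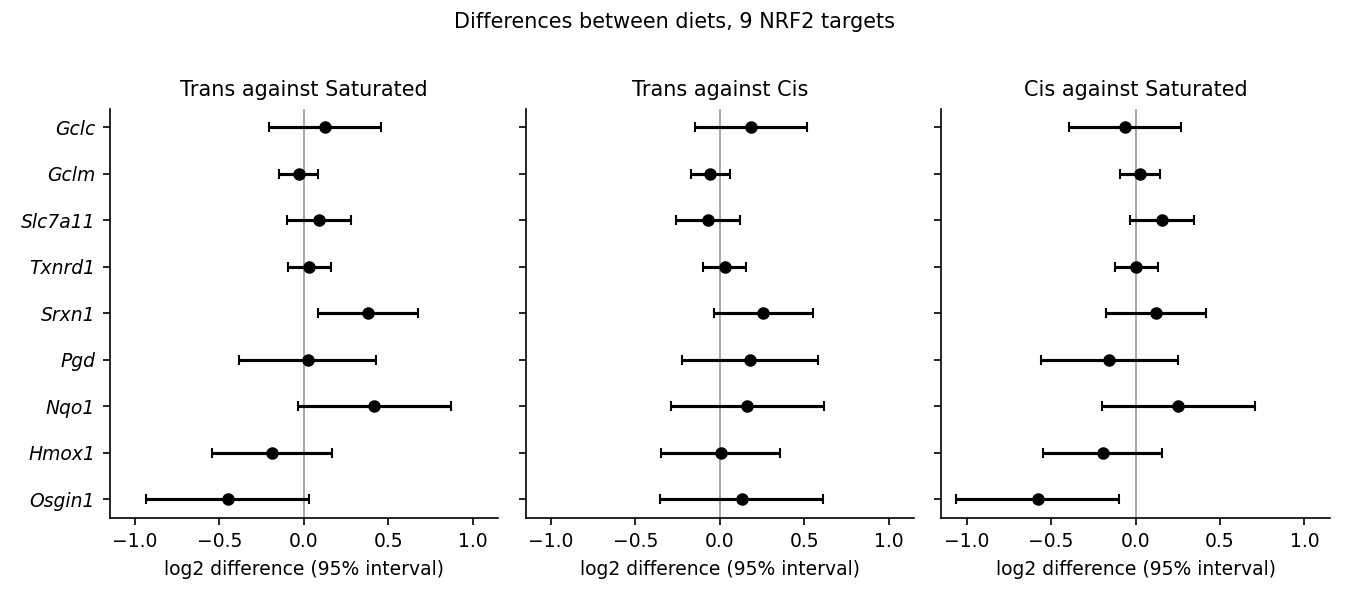
Log2 differences in mean expression (x axis) of the 9 NRF2 targets (y axis) in the 3 comparisons, with 95% intervals from the limma fit of 24 livers. The intervals leave out 0 for Srxn1 in Trans against Saturated and for Osgin1 in Cis against Saturated, and they are narrowest for Gclm and Txnrd1.

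In the rest of the pathway no gene was called either. At an unadjusted p under 0.05 for Trans against Saturated, 1 regulator, 2 targets in glutathione and thioredoxin metabolism, 2 in detoxification and export and 1 in NADPH, heme and iron metabolism were higher and 0 were lower, beside 4.55% higher and 3.78% lower over all genes. For Cis against Saturated the counts in the same order were 0, 2, 3 and 1 higher and 0 lower, beside 3.47% and 3.42%, and for Trans against Cis they were 1, 1, 1 and 0 higher and 0 lower, beside 3.5% and 2.99%. Among 10 regulators, Nfe2l2 itself differed by -0.02 between Trans and Saturated livers (SE 0.09) and by 0.04 between Trans and Cis livers, and its inhibitor Keap1 by 0.11 (SE 0.07) and 0.05. Sqstm1, the autophagy receptor p62 that competes for KEAP1, was 0.20 higher in Trans than in Cis livers (SE 0.09, adjusted p = 0.802 in limma), with 8 of 8 Trans livers above the Cis mean. In mean, 8 of 10 regulators were higher in Trans than in Saturated livers (median 0.07), 9 of 10 in Trans than in Cis livers (median 0.05) and 5 of 10 in Cis than in Saturated livers (median -0.01).

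Of 8 measured targets in glutathione and thioredoxin metabolism, 7 were higher in mean in Trans than in Saturated livers (median 0.10), 6 in Trans than in Cis livers (median 0.03) and 7 in Cis than in Saturated livers (median 0.05). Gss, glutathione synthetase, was 0.35 higher in Trans (SE 0.13, unadjusted p = 0.0133, adjusted p = 0.554 in limma) and 0.34 higher in Cis than in Saturated livers (adjusted p = 0.670 in limma). All 8 Trans and all 8 Cis livers lay above the Saturated mean for Gss. Gsr, glutathione reductase, was 0.14 higher in Trans than in Cis livers (SE 0.05, adjusted p = 0.764 in limma), and Glrx, glutaredoxin, was 0.26 higher in Cis than in Saturated livers (SE 0.12, adjusted p = 0.737 in limma). Gpx2, a glutathione peroxidase, went against the rest of the list in Trans against Saturated, at -0.11 (SE 0.20).

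In the detoxification and export list 13 of 15 measured genes were higher in mean in Trans than in Saturated livers, with a median of 0.10, and 10 of 15 in each of the other comparisons. The smallest unadjusted p belonged to Entpd5, an endoplasmic reticulum nucleotidase, with a log2 difference of 0.34 (SE 0.07, unadjusted p = 0.000128, adjusted p = 0.202 in limma) for Trans against Saturated and 0.19 for Cis against Saturated. Abcc3, which exports glucuronides and bile acids into blood, was 0.41 higher in Trans (SE 0.11, adjusted p = 0.311 in limma) and 0.32 higher in Cis than in Saturated livers (adjusted p = 0.638 in limma). For Entpd5 and Abcc3 alike, 8 of 8 Trans and 8 of 8 Cis livers lay above the Saturated mean. Both were named for their small p-values, so these counts restate the values that picked them. The transporter gene Abcc4 was 0.41 higher in Trans than in Cis livers (SE 0.12, adjusted p = 0.609 in limma). Gstp1, a glutathione S-transferase, went the other way at -0.19 for Trans against Saturated (SE 0.14).

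Of 10 further targets in NADPH, heme and iron metabolism, 7 were higher in mean in Trans than in Saturated livers (median 0.03), 4 in Trans than in Cis livers (median -0.02) and 7 in Cis than in Saturated livers (median 0.07). Slc48a1, a heme transporter, was 0.22 higher in Trans than in Saturated livers (SE 0.09, adjusted p = 0.575 in limma), and Blvrb, biliverdin reductase B, was 0.18 higher in Cis than in Saturated livers (SE 0.08, adjusted p = 0.738 in limma). Me1, which makes NADPH as malic enzyme, was at -0.17 for Trans against Saturated (SE 0.23). The antioxidant enzymes outside the pathway list, such as superoxide dismutases and catalase, had a median of 0.02 for Trans against Saturated, with Gpx1 at 0.12 (SE 0.05, adjusted p = 0.625 in limma).

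**Figure D3:**
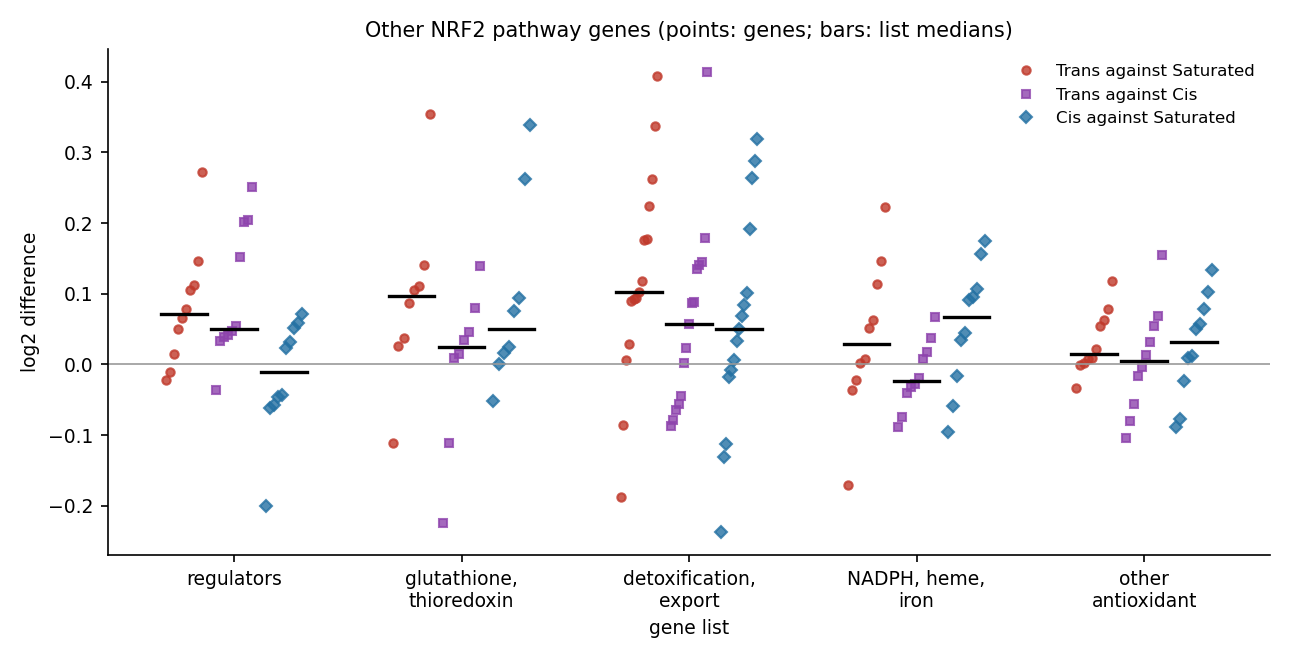
Log2 differences (y axis) of single genes (points) in 4 lists of NRF2 pathway genes and 1 list of other antioxidant enzymes (x axis), by comparison, with list medians as bars. In Trans against Saturated the medians run from 0.02 to 0.10, and the highest point is Abcc3 at 0.41.

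Mice on the same diet differed widely in several targets. Among expressed genes, Osgin1, Nqo1, Pgd, Hmox1 and Gclc had residual SDs at the 97.8th, 97.2nd, 95.9th, 93.8th and 92.3rd percentiles. Cis replicate 6 had the highest value of its diet for 6 of 9 targets and Cis replicate 7 the lowest for 5 of 9. Their mean deviations from the Cis mean over the 9 targets were 0.35 and -0.30.

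Whether the targets moved together was examined on deviations from the diet means, over 24 livers and 36 pairs, with permutation within diets and Benjamini-Hochberg adjustment over the pairs. By Pearson's r 9 pairs were called, 8 of them positive, and by Spearman's rho 4 of these 9. With the 2 farthest livers of each pair left out, 1 pair was called by Pearson's r. Nqo1, Txnrd1, Srxn1 and Pgd formed a set in which all 6 pairs were called by Pearson's r, with r from 0.55 to 0.78 and rho from 0.48 to 0.67. The pair of Txnrd1 and Pgd had r = 0.78 (adjusted permutation p = 0.0018) and rho = 0.67 (adjusted permutation p = 0.0175), and r = 0.55 without the 2 livers farthest in Txnrd1, Cis replicates 7 and 6. Among the 8297 other expressed genes, Pgd stood at rank 4 by its r with Txnrd1, and Txnrd1 at rank 25 by its r with Pgd. The other pairs of the set ranked from 42 (Srxn1 for Nqo1) to 373 (Nqo1 for Txnrd1). The pair of Nqo1 and Srxn1 had r = 0.70 (adjusted permutation p = 0.0018) and rho = 0.62 (adjusted permutation p = 0.0175), and r = 0.70 without the 2 farthest livers.

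Within single diets the 6 pairs of these 4 genes gave 18 values of r, all 18 positive, from 0.16 to 0.87 over 8 livers each. The 4 genes were picked by their r over these same livers, so positive values were likely beforehand and are not separate support. With Cis replicates 6 and 7 both left out, a choice made after seeing the data, r ran from 0.34 to 0.59 and 2 of the 6 pairs were called. As a background, among all pairs of expressed genes the median r was 0.02, and 3.36% of pairs had r of at least 0.5, 1.19% of at least 0.6 and 0.316% of at least 0.7. These shares are over unpicked pairs, whereas the 6 pairs were picked for high r, so setting them side by side is no test.

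Gclc was in no called pair with this set, with r of 0.31 with Srxn1, 0.18 with Nqo1, -0.04 with Txnrd1 and 0.04 with Pgd. It moved with Osgin1 (r = 0.59, adjusted permutation p = 0.0242, rho = 0.55, adjusted permutation p = 0.0548, and r = 0.57 without the 2 farthest livers). By diet this r was 0.77 in Trans, -0.01 in Cis and 0.77 in Saturated livers, a difference that was not tested. Gclc also moved with Hmox1 (r = 0.54, adjusted permutation p = 0.0407, rho = 0.52, adjusted permutation p = 0.0922, and r = 0.47 without the 2 farthest livers). Pgd and Osgin1 went in opposite directions (r = -0.47, adjusted permutation p = 0.0407, rho = -0.46, adjusted permutation p = 0.102), with r = -0.30 without the 2 farthest livers and negative values in all 3 diets. Gclm and Slc7a11 were in no called pair.

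**Figure D4:**
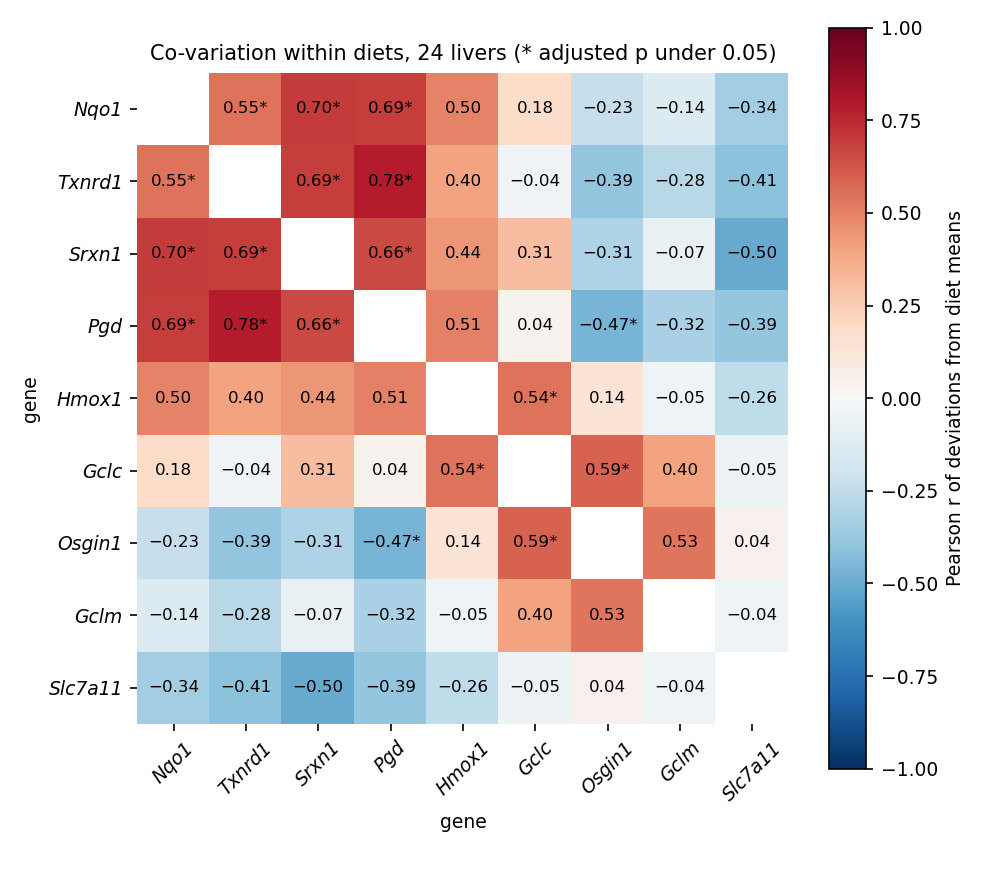
Pearson's r (colour and number) between the deviations of each pair of NRF2 targets from their diet means over 24 livers, with genes on both axes and asterisks at adjusted permutation p under 0.05. Nqo1, Txnrd1, Srxn1 and Pgd form a block of positive r from 0.55 to 0.78, and Gclc pairs with Hmox1 and Osgin1.

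The targets were next set beside the mean level of 13 lists of other genes in the same livers, a step added after seeing the data that gave 117 relations, again on deviations from diet means. By Pearson's r 17 were called, by Spearman's rho 8, and by both 7. In whole liver a lower value of a cell type's genes can mean fewer such cells or less RNA in each, and these cannot be told apart.

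Hmox1 went with the markers of Kupffer cells, the resident macrophages of the liver that take up old red blood cells and are known for high Hmox1. Over 24 livers r was 0.68 (adjusted permutation p = 0.0124) and rho 0.73 (adjusted permutation p = 0.00819), with r = 0.64 without the 2 farthest livers, and r was 0.53 in Trans, 0.85 in Cis and 0.64 in Saturated livers. The Kupffer markers differed between diets in the same direction as Hmox1. In mean, 10 of 11 were lower in Trans than in Saturated livers (median -0.26) and 11 of 11 lower in Cis than in Saturated livers (median -0.21), with 0 called in limma and with 2 and 0 at an unadjusted p under 0.05. The mean level of the list, relative to the mean of all livers, ran from -0.59 to 0.41 in Trans, from -0.48 to 0.46 in Cis and from -0.41 to 0.65 in Saturated livers, so the diets overlapped, and its part in the Hmox1 values was not tested. Hmox1 also went with the endothelial markers (r = 0.65, adjusted permutation p = 0.0209, rho = 0.61, adjusted permutation p = 0.0417, and r = 0.66 without the 2 farthest livers). In mean, 7 of 9 endothelial markers were higher in Trans than in Saturated livers (median 0.08), the opposite direction to Hmox1, 9 of 9 were higher in Trans than in Cis livers (median 0.10), and 9 of 9 were lower in Cis than in Saturated livers (median -0.07). The level of this list ran from -0.08 to 0.24 in Trans, from -0.23 to 0.11 in Cis and from -0.10 to 0.15 in Saturated livers. By Pearson's r alone Hmox1 went with the lymphocyte and neutrophil markers as well (r = 0.55, adjusted permutation p = 0.0447, rho = 0.57, adjusted permutation p = 0.0578), with r = 0.48 without the 2 farthest livers. Of the 10 measured genes of that list 0 had a mean signal over 20.

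Srxn1 went with the markers of recruited and lipid-associated macrophages, with r = 0.74 (adjusted permutation p = 0.00819) and rho = 0.72 (adjusted permutation p = 0.00819), and r = 0.66 without the 2 farthest livers. By diet r was 0.91 in Trans, 0.75 in Cis and 0.58 in Saturated livers. This list was also higher in mean in Trans livers, in 8 of 9 genes against Saturated (median 0.14) and in 8 of 9 against Cis (median 0.22). Its level ran from -0.39 to 1.03 in Trans, from -0.43 to 0.33 in Cis and from -0.44 to 0.14 in Saturated livers, and of its 9 genes 3 had a mean signal over 20. Mmp12, macrophage elastase, was 1.41 higher in Trans than in Saturated livers (SE 0.42, adjusted p = 0.387 in limma). Srxn1 went with the endothelial markers too (r = 0.58, adjusted permutation p = 0.0403, rho = 0.61, adjusted permutation p = 0.0417, and r = 0.65 without the 2 farthest livers), and with the adipocyte list by Pearson's r alone (r = 0.56, adjusted permutation p = 0.0403, rho = 0.56, adjusted permutation p = 0.0578, and r = 0.62 without the 2 farthest livers). In mean, 6 of 6 adipocyte genes were higher in Trans than in Saturated livers. Srxn1 went against the exocrine pancreas list, by Pearson's r alone (r = -0.57, adjusted permutation p = 0.0403, rho = -0.60, adjusted permutation p = 0.0523). Without the 2 farthest livers r was -0.54, and 1 of the 6 genes of that list had a mean signal over 20. The part of these lists in the Srxn1 difference between diets was not tested.

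Srxn1 and Txnrd1 both went with the markers of hepatic stellate cells, the vitamin A storing cells that make collagen when activated. For Srxn1 r was 0.73 (adjusted permutation p = 0.0109) and rho 0.64 (adjusted permutation p = 0.0417), and r was 0.62 without the 2 farthest livers. For Txnrd1 r was 0.67 (adjusted permutation p = 0.0127) and rho 0.64 (adjusted permutation p = 0.0372), and r was 0.59 without the 2 farthest livers. Pgd went with the same list by Pearson's r alone (r = 0.55, adjusted permutation p = 0.0403, rho = 0.58, adjusted permutation p = 0.0578), with r = 0.44 without the 2 farthest livers. In mean, 3 of 8 stellate genes were higher in Trans than in Saturated livers (median -0.06), 4 of 8 in Trans than in Cis livers (median 0.03) and 2 of 8 in Cis than in Saturated livers (median -0.13).

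Nqo1 went with the adipocyte marker list, which here was led by Cidec, a lipid droplet protein that fatty hepatocytes also make. Over 24 livers r was 0.69 (adjusted permutation p = 0.0124) and rho 0.64 (adjusted permutation p = 0.0372), and r was 0.62 without the 2 farthest livers. By diet r was 0.95 in Trans, 0.41 in Cis and 0.60 in Saturated livers. Cidec was 1.57 higher in Trans than in Saturated livers (SE 0.37, adjusted p = 0.219 in limma) and 1.23 higher in Cis than in Saturated livers (adjusted p = 0.579 in limma), and of the other 5 genes Fabp4 alone had a mean signal over 20. The level of the list ran from -0.14 to 0.66 in Trans, from -0.14 to 0.29 in Cis and from -0.61 to 0.12 in Saturated livers, and its part in the Nqo1 values was not tested. In Trans livers both were highest in replicates 4 and 1. By Pearson's r alone Nqo1 also went with the smooth muscle markers (r = 0.55, adjusted permutation p = 0.0447, rho = 0.53, adjusted permutation p = 0.0835), with r = 0.31 without these 2 livers. The same held for the recruited macrophage list (r = 0.56, adjusted permutation p = 0.0403, rho = 0.54, adjusted permutation p = 0.0835).

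Pgd went with the lipogenic genes, among them Fasn, fatty acid synthase, which consumes NADPH. Over 24 livers r was 0.77 (adjusted permutation p = 0.0109) and rho 0.53 (adjusted permutation p = 0.0835), and r was 0.57 without the 2 farthest livers, Saturated replicate 2 and Cis replicate 7. By diet r was 0.22 in Trans, 0.80 in Cis and 0.94 in Saturated livers. In mean, 9 of 11 lipogenic genes were lower in Trans than in Saturated livers (median -0.23), with 0 called in limma and 0 at an unadjusted p under 0.05, and Pgd differed by 0.02 there. The relation was not particular to Pgd. Txnrd1 went with this list by Pearson's r alone (r = 0.53, adjusted permutation p = 0.0444, rho = 0.45, adjusted permutation p = 0.142), with r = 0.29 without the 2 farthest livers. Gclc went against it by Spearman's rho alone (rho = -0.64, adjusted permutation p = 0.0372, r = -0.34, adjusted permutation p = 0.296).

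**Figure D5:**
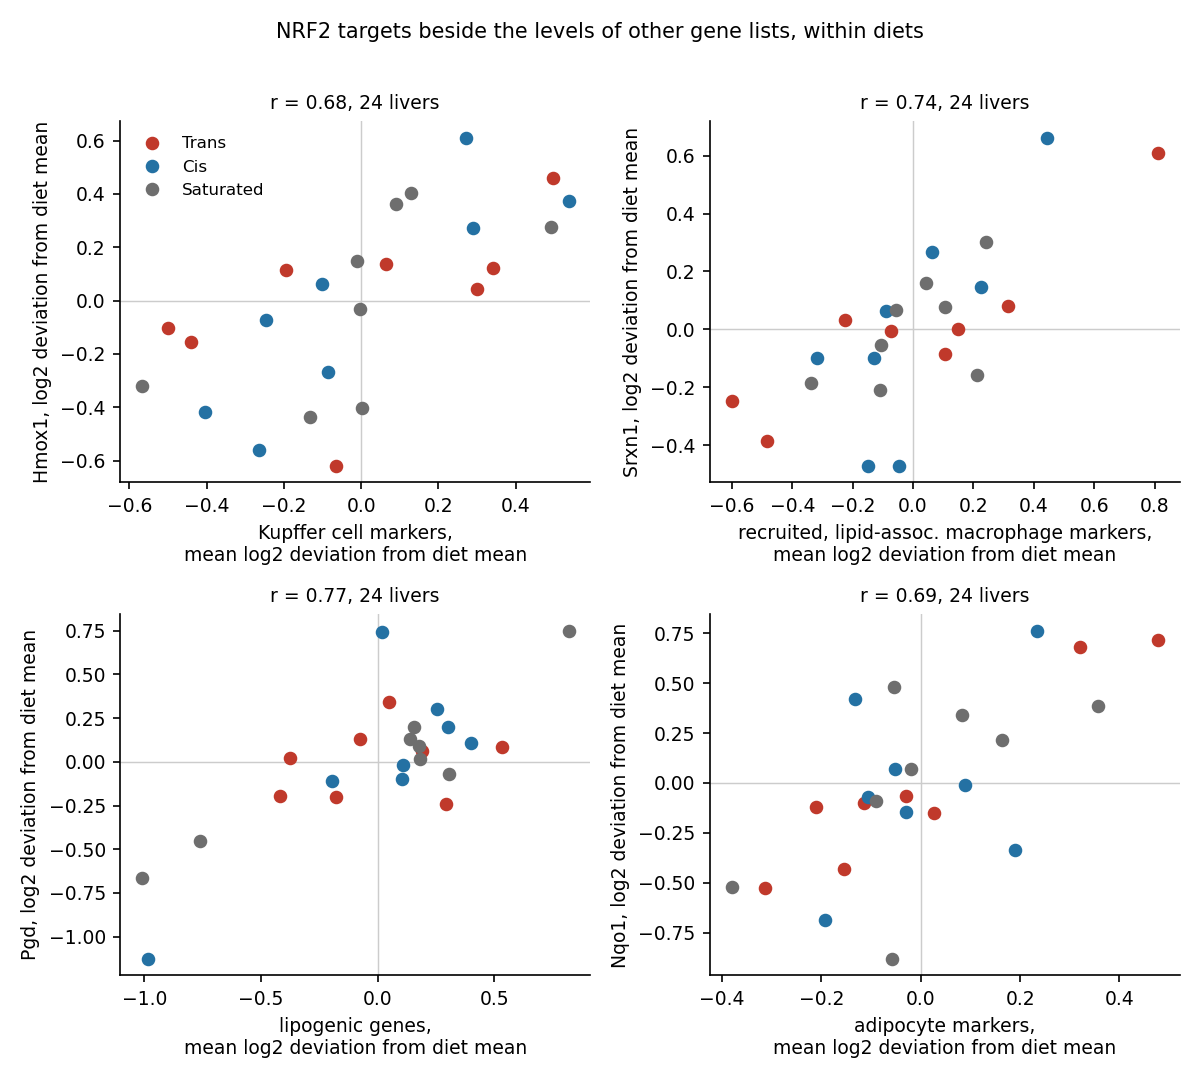
Log2 deviations of Hmox1, Srxn1, Pgd and Nqo1 from their diet means (y axes) against the mean log2 deviation of a list of other genes (x axes), with 1 point per liver coloured by diet. Pearson's r over 24 livers is 0.68, 0.74, 0.77 and 0.69 in turn, and all 3 diets spread along each relation except Pgd in Trans livers, where r was 0.22.

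The single expressed gene most like each target over the 24 livers was found by Pearson's r of the log2 values. It was Clpx, a subunit of a mitochondrial protease, for Gclc (r = 0.91), Cs, citrate synthase, for Pgd (0.90), Ifi27l2b for Srxn1 (0.90), Nadk, the kinase that makes NADP from NAD, for Nqo1 (0.86), and Ifi30, a lysosomal thiol reductase, for Hmox1 (0.85). The values were lower for Txnrd1 with Pef1 (0.79), Osgin1 with the fibrinogen gene Fga (0.74), Gclm with Uhmk1 (0.68) and Slc7a11 with Fut11 (0.67). These were the highest of 8297 or 8298 correlations each, and they describe these livers without a test.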

How the data were processed

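Liver RNA of 24 mice was measured on Affymetrix Mouse Gene 1.1 ST arrays, 1 array per mouse. The authors normalized the arrays by robust multi-array average (RMA) with Bioconductor packages, and the deposited values are log2 expression values per probe set, after background correction and quantile normalization. These steps assume similar overall distributions and compress low signals. The genome build and package versions are not given in the sources used here, nor is any scan batch. Precision is limited by how many arrays there are.

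Of 35556 probe sets, 21218 were paired with a single gene, 1881 with several and 12457 with none listed. They cover 18820 genes, each taken by its highest-mean probe set, and 0 symbols changed when looked up by gene identifier. The 3 diets were fitted together in limma 3.58.1 (R 4.3.3) with lmFit and eBayes. Tests are two-sided, adjusted by Benjamini-Hochberg over all probe sets. Correlations used deviations from diet means and 100000 permutations within diets (Python 3.11.15, numpy 2.4.6), leaving out the 2 livers farthest from the median of the first gene or list. The scripts were tested on simulated data.

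The members and the lists of other genes were chosen with earlier results of these data known. Genes named are all members, up to 3 genes of smallest p per list, genes that go against their list, and the most similar gene of each member. For genes named by smallest p, counts of livers above or below a reference mean rest on the same values and are not separate support. Replicate numbers did not pair the samples. Alternatives were a robust eBayes with trend, fits of the compared pair of diets alone, weights per array, a block for the replicate number, centring on medians, a second quantile normalization, a mean signal over 20, a fold over 1.5, the methods' Tukey's post hoc test, Spearman's rho, and leaving out each liver. Leaving out Cis replicates 6 and 7 together, values within each diet and the relations to other lists were chosen after seeing the data.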

Additional observations from a re-analysis of the deposited data

Results flagged for a closer look

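In 27 groups of 8 livers (9 targets in 3 diets), 2 had a liver whose gap to the nearest other liver was more than Dixon's 95% critical share of the whole range, and chance gives this in about 1 of 20 groups. For Srxn1 this was Trans replicate 1, with a log2 value of 6.94 against 6.41 in the next Trans liver, a gap of 0.532 of the range. The same liver had the highest level of the recruited macrophage, smooth muscle and stellate cell lists among the Trans livers. For Pgd it was Cis replicate 7, with 5.94 against 6.95 in the next Cis liver, a gap of 0.544 of the range.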

How the results depend on the processing

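The count of NRF2 targets called stayed at 0 in every comparison under all alternatives but 1. Tukey's post hoc test without adjustment over probe sets called 1 target for Trans against Saturated, Srxn1 (Tukey-adjusted p = 0.0448 over the 3 comparisons, log2 difference 0.38). The same test passed 789, 591 and 595 genes for Trans against Saturated, Trans against Cis and Cis against Saturated, and with Benjamini-Hochberg 0 for Trans against Saturated. The count of genes called for Trans against Saturated, 3, was 0 with only the 2 groups compared, 5 with the replicate block (0 targets called), and 1 with median centring or with both Cis replicates 6 and 7 left out, which also gave 1 for Trans against Cis. The block rests on shared numbers only: the correlations of same-numbered livers ran from -0.111 to 0.239, and 4 of 24 livers were closest to their own number. With single livers left out the count for Trans against Saturated ran from 1 to 13. It was 13 without Saturated replicate 2, 6 without Saturated replicate 1, and 1 without Trans replicates 1 to 6, Cis replicates 1, 4, 5, 6 or 7, or Saturated replicates 3, 4, 6, 7 or 8. For Trans against Cis it ran from 0 to 1 (1 without Saturated replicate 8) and for Cis against Saturated from 0 to 1 (1 without Saturated replicate 2).

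Small differences between diets changed sign. Txnrd1 in Trans against Cis was -0.0039 with array weights, and Hmox1 in Trans against Cis was -0.027 with array weights, -0.0026 with quantile normalization again and -0.0015 with median centring. With single livers left out, Gclc in Cis against Saturated ran from -0.146 to 0.0029, Txnrd1 from -0.013 to 0.059 in Trans against Cis and from -0.026 to 0.046 in Cis against Saturated, and Hmox1 in Trans against Cis from -0.074 to 0.094. Pgd ran from -0.072 to 0.130 in Trans against Saturated and from -0.261 to 0.0058 in Cis against Saturated, Slc7a11 in Trans against Cis from -0.106 to 0.0032, and Osgin1 in Trans against Cis from -0.040 to 0.199. The cause was not tested. Of the 9 called pairs of targets, Spearman's rho left 4, leaving out the 2 farthest livers of each pair left 1, and leaving out Cis replicates 6 and 7 left 3. No target had another probe set to compare. Slc7a11, with a mean signal of 3.19, lies where the array separates levels poorly.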

Other observations

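Slc7a11 is also a known target of ATF4, the transcription factor of the amino acid response, and Nqo1 of the aryl hydrocarbon receptor. Atf4 itself was lower in mean in Trans than in Saturated livers, with a log2 difference of -0.33 (SE 0.10, unadjusted p = 0.00205, adjusted p = 0.372 in limma) and 8 of 8 Trans livers below the Saturated mean, and -0.23 in Cis against Saturated. Among 9 measured genes of the ATF4 list 4 were higher and 5 lower in mean in Trans than in Saturated livers, with Sesn2, a stress-induced regulator of growth, at 0.27 (SE 0.11, adjusted p = 0.595 in limma) and 8 of 8 Trans livers above the Saturated mean.

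Cyp1a2, a liver cytochrome P450 controlled by the aryl hydrocarbon receptor, was lower in mean in Trans livers, at -0.58 against Saturated (SE 0.13, unadjusted p = 0.000174, adjusted p = 0.202 in limma, 8 of 8 Trans livers below the Saturated mean) and -0.40 against Cis (adjusted p = 0.692 in limma). Over deviations from diet means, Nqo1 went against the mean of the 4 measured genes of that receptor's list, with r = -0.62 (adjusted permutation p = 0.0209 over 117 relations) and rho = -0.48 (adjusted permutation p = 0.121), and r = -0.51 without the 2 farthest livers. By diet r was -0.81 in Trans, -0.41 in Cis and -0.93 in Saturated livers. Of the 4 genes only Cyp1a2 had a mean signal over 20. The relation was not particular to Nqo1. Hmox1 was called against the same list by Pearson's r alone (r = -0.61, adjusted permutation p = 0.0391, rho = -0.51, adjusted permutation p = 0.111). Srxn1, Gclc and Pgd also had negative r with it (-0.58, -0.49 and -0.48) and were not called.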
